A study of Bos taurus with 8 samples.

Results

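IDO1, the gene of indoleamine 2,3-dioxygenase 1 (ENSBTAG00000020602), was followed as 1 of the 21861 genes measured in blood mononuclear cells of cattle exposed to lipopolysaccharide (LPS). It was chosen by its UMI counts in these same libraries, where it was a leading gene of NK-like cells, so its levels by cell class are a description with no test. Blood of 4 Holstein cows, female and 2 years old, was pooled and divided into 4 parts, of which 1 was left without LPS and the others were held with LPS at 2 µg/ml and stopped after 2 h, 4 h and 8 h. Each part gave 1 single-cell RNA-seq library of mononuclear cells, so each treatment had 1 library, and library and treatment cannot be told apart. All 4 parts shared the same pooled animals, and how long the part without LPS was incubated was not given in the sources used here. Intervals are at the 95% level and cover counting error only.

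IDO1 catalyses the first step of tryptophan breakdown along the kynurenine pathway. By using up tryptophan and making kynurenine it is known to slow T cell growth and to limit some intracellular microbes. It is best known from dendritic cells and macrophages, where interferon gamma induces it. NK cells are cytotoxic lymphocytes recognised here by NCR1, the gene of the activating receptor NKp46.

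Barcodes were kept within limits on genes, UMIs and mitochondrial share, which also removed barcodes with more than 3000 genes. In all, 28484 cells were kept, of which 7821 came from the part without LPS, 9865 from 2 h, 7387 from 4 h and 3411 from 8 h. The kept cells held 38503367 of 58038800 deposited UMIs without LPS and 16657841 of 30902952 at 8 h. The median depth was between 3997 and 4757 UMIs (unique molecular identifiers, here counted RNA molecules) per library, and 79 barcodes, 0.278% of all, occurred in more than 1 library. IDO1 had 5387 UMIs in 626 cells without LPS, 5999 UMIs in 728 cells at 2 h, 6289 UMIs in 660 cells at 4 h and 2681 UMIs in 394 cells at 8 h. Cells were classed by whether they held a UMI of a marker gene: NCR1 with no CD3E (NK), CD14 (monocytes), FLT3 (dendritic cells), CD3E (T cells) and MS4A1 (B cells), and a cell could be in several classes. The 5 classes held 309, 2595, 111, 15526 and 8138 cells over the 4 libraries.

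IDO1 was higher in NCR1-positive CD3E-zero cells than in any other class, in all 4 libraries. Its level, as UMIs per 1000000 UMIs (CPM) of the class, was 2328 CPM without LPS (interval 2166 to 2499, from 765 UMIs in 65 cells). It was 2503 CPM at 2 h (2373 to 2639, 1379 UMIs in 106 cells), 2718 CPM at 4 h (2585 to 2856, 1566 UMIs in 98 cells) and 2324 CPM at 8 h (2148 to 2512, 640 UMIs in 40 cells). The values without LPS and at 8 h lay within each other's intervals, and the 4 h value was the highest of the 4. Against CD3E-positive cells of the same library the level was 24.4-fold higher without LPS (22.4 to 26.6), 34.6-fold at 2 h (32.3 to 37.1), 27.5-fold at 4 h (25.7 to 29.3) and 25.1-fold at 8 h (22.7 to 27.8). Against FLT3-positive cells, the next class, it was 4.65-fold higher without LPS (4.02 to 5.40), 13.9-fold at 2 h (11.002 to 17.9), 13.2-fold at 4 h (10.2 to 17.2) and 2.29-fold at 8 h (1.95 to 2.70). The 8 h fold fell under 2 with cells of 1 class only (1.57) and with at least 2 UMIs of the marker (1.90). The folds over CD3E-positive cells were the 22nd, 20th, 24th and 21st largest folds of 10194, 10434, 10236 and 9471 genes with at least 20 UMIs in the pair of classes, of which 10.4%, 10.4%, 9.4% and 8.85% were past 2-fold higher in NCR1-positive CD3E-zero cells. IDO1 was chosen for this pattern, so nothing is read from its place among these genes.

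**Figure D1:**
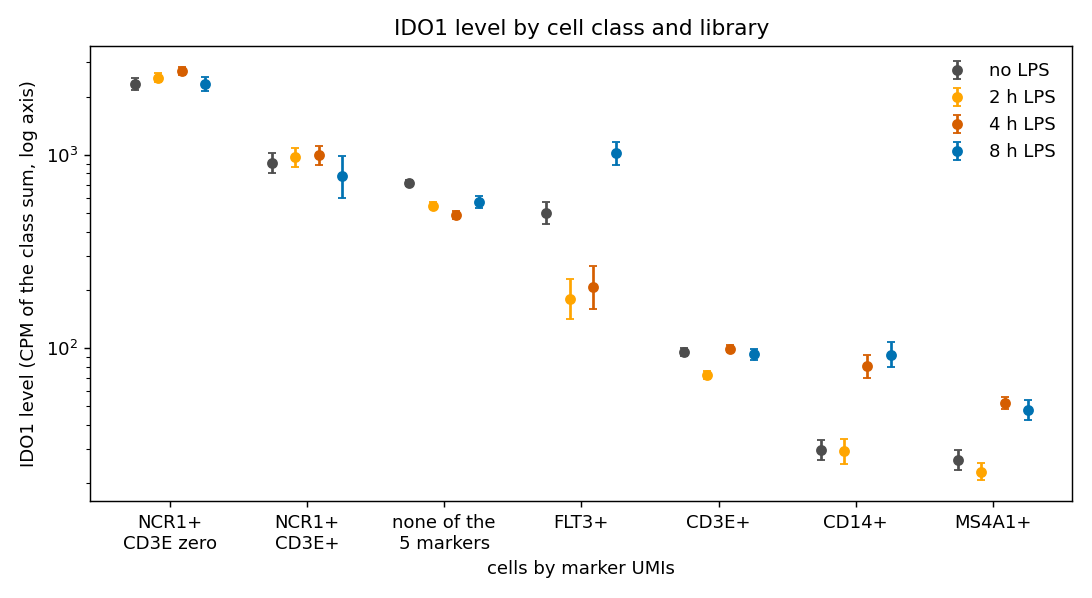
IDO1 level in CPM of the summed UMIs of each class (log axis), by library, with exact Poisson 95% intervals for counting error. The NCR1-positive CD3E-zero cells lie between 2324 and 2718 CPM, above every other class in each library, and the MS4A1-positive cells lie lowest, between 22.9 and 52.0 CPM.

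The class carried NK genes beside NCR1. In the order no LPS, 2 h, 4 h and 8 h, which later values keep, PRF1 (perforin, which opens target cell membranes) had a UMI in 69.2%, 76.4%, 69.4% and 75.0% of its cells, and NKG7 (a granule protein) in 73.8%, 69.8%, 75.5% and 82.5%. Of the 11 NK markers measured beside NCR1, which chose the cells, 11, 11, 11 and 10 had UMIs, with a summed level of 2331 to 2596 CPM. Markers of other cells were present at lower levels. The monocyte list (12 genes, of which 10, 8, 9 and 6 had UMIs) summed to 867 CPM without LPS and 429 to 528 CPM with LPS. The plasma cell list (4 genes) summed to 320, 517, 10.4 and 25.4 CPM, at 2 h above the monocyte list (503 CPM). The neutrophil list (5 genes) summed to 201, 3.63, 66.0 and 43.6 CPM. The T cell list (13 genes, CD3E at 0 by the choice of cells) summed to 225 to 323 CPM and the dendritic list to 30.4 to 85.3 CPM. The part of such cells in the IDO1 level was not tested.

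Most cells of the class held IDO1, and many held it in quantity. At least 1 IDO1 UMI was found in 55 of 65 cells without LPS (84.6%, exact binomial interval 73.5 to 92.4), 97 of 106 at 2 h (91.5%, 84.5 to 96.0), 90 of 98 at 4 h (91.8%, 84.5 to 96.4) and 34 of 40 at 8 h (85.0%, 70.2 to 94.3). With every cell thinned to 1000 UMIs the shares were 76.9%, 82.1%, 78.6% and 80.0%, and all cells of the class were deep enough to be thinned. The median cell held 12, 12, 13.5 and 14.5 IDO1 UMIs, and 53.8%, 63.2%, 73.5% and 67.5% of the cells held 10 or more. The highest single cell held 5.62%, 2.47%, 3.96% and 9.53% of the IDO1 UMIs of the class in its library.

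**Figure D2:**
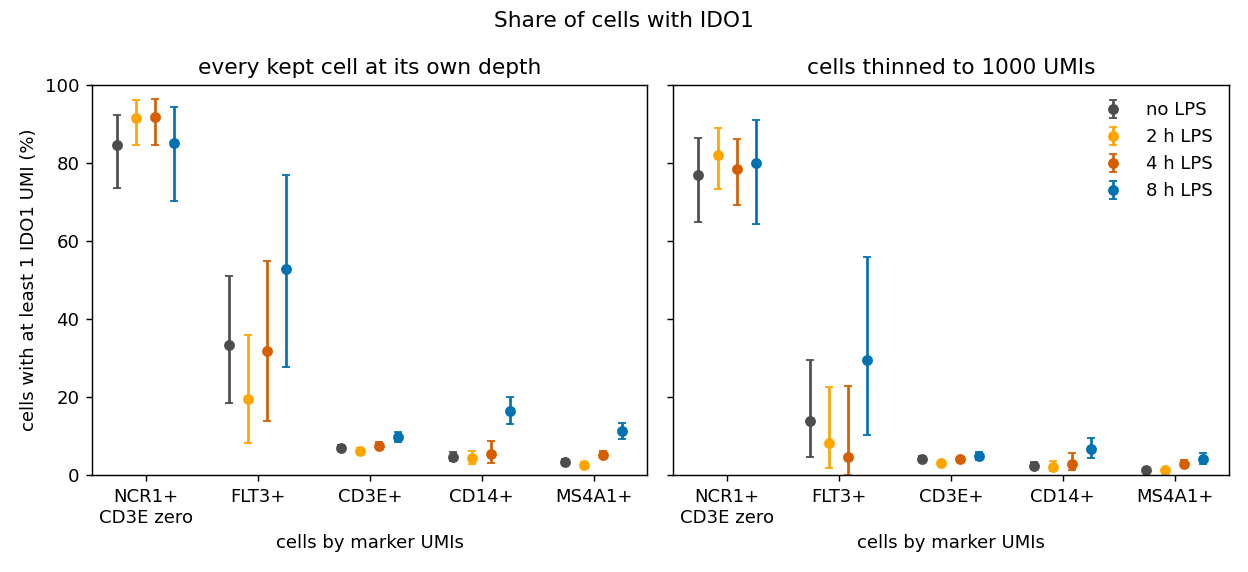
Percent of cells with at least 1 IDO1 UMI by class and library, with exact binomial 95% intervals. The left side is at full depth. On the right cells were thinned to 1000 UMIs, and cells with fewer UMIs were left out. The NCR1-positive CD3E-zero cells lie at 84.6 to 91.8% at full depth and at 76.9 to 82.1% after thinning, while CD3E-positive cells lie under 10% in all 4 libraries.

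The few cells of the class with no IDO1 UMI were 10, 9, 8 and 6 in number, and they were no shallower, with medians of 6024.5, 6876, 7636 and 9739 UMIs against 4571, 4604, 5357.5 and 6518 UMIs in the cells with IDO1. GNLY, the gene of the cytolytic granule protein granulysin, was lower in them in all 4 libraries, at 65.4 against 1092 CPM, 387 against 1544 CPM, 0 against 1509 CPM and 0 against 1224 CPM. PRF1 was lower too, at 147 against 411 CPM, 212 against 416 CPM, 117 against 418 CPM and 192 against 390 CPM. KLRB1, the lectin-like receptor CD161, had 343 against 93.5 CPM, 112 against 65.8 CPM, 368 against 96.8 CPM and 122 against 110.04 CPM, and so was close at 8 h. NKG7 was higher in them without LPS and at 8 h only, at 687 against 482 CPM, 237 against 367 CPM, 267 against 383 CPM and 454 against 316 CPM. No intervals are given for these sums over few cells. The NK list without NCR1 summed to 1814 against 2449 CPM, 1275 against 2780 CPM, 1187 against 2760 CPM and 2236 against 2393 CPM. Without GNLY, a choice made after seeing the data, it was higher in the cells with no IDO1 without LPS (1749 against 1357 CPM) and at 8 h (2236 against 1169 CPM) and lower at 2 h (887 against 1236 CPM) and 4 h (1187 against 1251 CPM). Without LPS their monocyte list was 1880 CPM against 636 CPM in the cells with IDO1, and at 2 h it was 800.0 against 452 CPM. At 4 h it was 368 against 546 CPM and at 8 h 437 against 426 CPM, so the monocyte list did not differ one way in all libraries. The T cell list was 425 against 299 CPM, 537 against 212 CPM, 585 against 198 CPM and 175 against 238 CPM. The dendritic list was 114 against 11.2 CPM, 400.0 against 31.9 CPM, 50.1 against 58.1 CPM and 314 against 13.8 CPM. In the cells with no IDO1 the T cell list was thus lower at 8 h only, and the dendritic list at 4 h only.

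With LPS, IDO1 changed little in NCR1-positive CD3E-zero cells, and no time point was past 2-fold. The ratio to the library without LPS was 1.08 at 2 h (interval 0.984 to 1.18) and 1.17 at 4 h (1.07 to 1.27). At 8 h it was 0.998 (0.897 to 1.11). Of 4153, 4254 and 3254 genes with at least 20 UMIs in this class, 5.63%, 6.04% and 4.27% were past 2-fold higher and 3.68%, 3.62% and 4.27% past 2-fold lower, and the IDO1 ratio stood at percentiles 57.0, 65.1 and 49.0 of these genes. The value without LPS depended on the limit of 3000 genes per cell: with no upper limit it fell to 1444 CPM, and the ratios were 1.46, 1.69 and 1.51. With at least 2 NCR1 UMIs per cell it was 1814 CPM and the ratios were 1.58 at 2 h and 1.72 at 4 h.

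The type I interferon targets named here rose in the same cells by larger ratios than IDO1, from few UMIs without LPS. ISG15, a ubiquitin-like protein made in answer to type I interferon, had 15.2 CPM without LPS, 639 CPM at 2 h, 879.9 CPM at 4 h and 47.2 CPM at 8 h, which was 42.0-fold higher at 2 h (17.8 to 130.1) and 57.8-fold at 4 h (24.6 to 179). MX1, an antiviral GTPase, went from 9.13 CPM to 249.9 CPM at 4 h, a ratio of 27.4 (9.18 to 134), and RSAD2, the antiviral enzyme viperin, from 9.13 CPM to 115 CPM, a ratio of 12.5 (4.11 to 62.4). Each of the 8 type I interferon targets listed had 2 to 5 UMIs in the class without LPS, so the ratios rest on few UMIs there. At 2 h the 8 had 6 to 352 UMIs, at 4 h 13 to 507 and at 8 h 2 to 13. A gene with so few UMIs without LPS reached the minimum of 20 UMIs only through a library where it was high, so no count past 2-fold is read from this list.

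IFNG, the gene of interferon gamma itself, had no UMI in NCR1-positive CD3E-zero cells without LPS, 92 UMIs at 2 h (167 CPM), 19 at 4 h (33.0 CPM) and 3 at 8 h (10.9 CPM). Against a floor of 3 counts over the class the ratio was 18.3 at 2 h, and the exact interval of the ratio began at 14.6. IRF1, which binds the promoters of interferon-induced genes, stayed within 2-fold, with 411, 412, 427 and 552 CPM, a ratio of 1.34 at 8 h (1.06 to 1.71). JAK1, the kinase bound to the receptor, also stayed within 2-fold, with 1068, 1339.6, 1231 and 1053 CPM. Of the 20 genes of the interferon gamma list, 10 had at least 20 UMIs at 2 h, with 1 (IFNG, which reached 20 UMIs only through that library) past 2-fold higher, beside 5.63% of all genes, and 0 lower, 10 at 4 h and 9 at 8 h, with 0 past 2-fold in either direction. Their median log2 ratio was 0.09, 0.09 and -0.11 against 0.02, 0.02 and 0.01 over all genes.

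**Figure D3:**
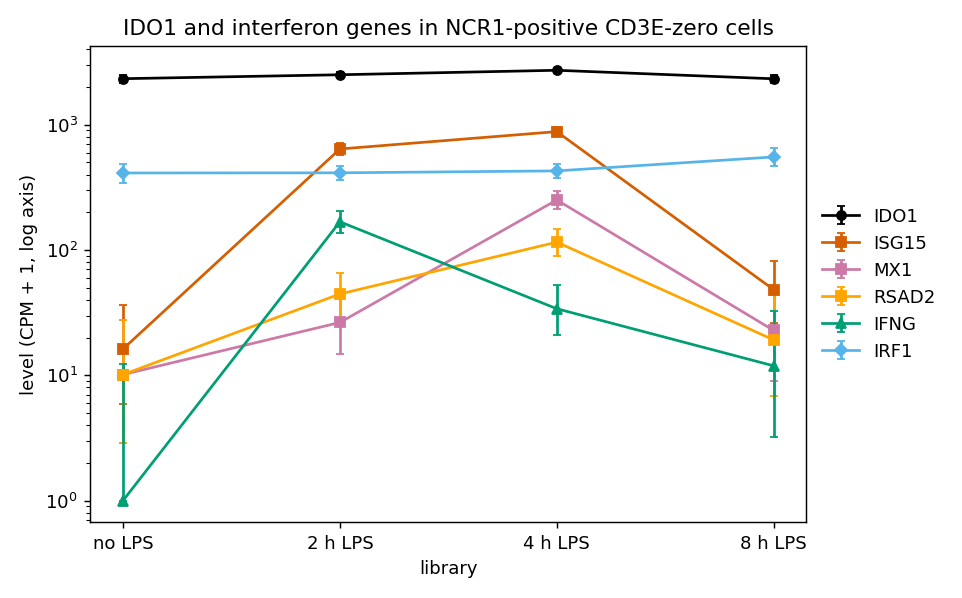
Levels of IDO1, 3 type I interferon targets (ISG15, MX1, RSAD2), IFNG and IRF1 in NCR1-positive CD3E-zero cells by library, as CPM + 1 on a log axis with exact Poisson 95% intervals. IDO1 stays between 2324 and 2718 CPM while ISG15 goes from 15.2 to 879.9 CPM at 4 h and back to 47.2 CPM at 8 h. The lines join the 4 libraries and are not a fit.

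Of 3 genes whose proteins are known to bind IDO1, SOCS3 was scarce in these cells and the others were not. SOCS3, which marks the IDO1 protein for breakdown, had 2 UMIs over the 4 libraries in NCR1-positive CD3E-zero cells (1.16 CPM, 0.140 to 4.17). It had 21.9 CPM in CD14-positive, 19.7 CPM in FLT3-positive and 8.08 CPM in CD3E-positive cells. In MS4A1-positive cells it had 4.16 CPM (3.59 to 4.79), an interval that overlapped that of NCR1-positive CD3E-zero cells. The phosphatase PTPN6 (SHP-1), which binds phosphorylated IDO1, had 109.6 CPM without LPS, 61.7 CPM at 2 h, 43.4 CPM at 4 h and 87.2 CPM at 8 h, so that it was past 2-fold lower at 4 h only, at a ratio of 0.396 (0.228 to 0.678). The ratio of PTPN11 (SHP-2) was 0.850, 0.619 and 0.812. Over the 4 libraries PTPN6 had 68.7 CPM and PTPN11 114 CPM in these cells, beside 72.4 and 129.8 CPM in CD14-positive cells.

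In CD3E-positive cells, the T cell class, IDO1 was low and sat in a minority of cells. Its level in the 4 libraries was 95.4, 72.3, 98.9 and 92.5 CPM, from 1776, 1846, 2197 and 916 UMIs. The ratios to no LPS were 0.758 at 2 h (0.710 to 0.809), 1.04 at 4 h and 0.969 at 8 h, and the later intervals included 1. Without cells that held 2 or more NK markers other than NCR1 the level was 35.5, 31.6, 48.4 and 68.1 CPM and the ratios were 0.892, 1.37 and 1.92, so that the 8 h ratio turned above 1. None was past 2-fold, while 4.3%, 5.99% and 4.48% of the genes tested in this class were. The share of cells with IDO1 was 6.95%, 6.20%, 7.53% and 9.76%, and 4.19%, 3.13%, 4.11% and 4.95% after thinning. In the few CD3E-positive cells that also held NCR1 (40, 41, 43 and 10 cells) the level was 907, 971, 993 and 775 CPM.

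Among the other CD3E-positive cells the level differed by coreceptor. Cells with CD8A or CD8B but no CD4 or WC1 gene had 181, 127, 128 and 126 CPM, and those with CD4 alone had 56.8, 48.7, 108 and 83.8 CPM. Cells with no CD4, CD8 or WC1 gene, the largest kind with 7343 cells over the 4 libraries, had 70.6, 49.6, 58.3 and 90.3 CPM. Cells with WC1 genes alone, markers of bovine gamma-delta T cells, had 43.4, 23.2, 37.6 and 10.4 CPM and were the lowest in each library. These values rested on 72, 38, 57 and 9 UMIs, of which 1 cell held 31.9%, 47.4%, 40.4% and 66.7%. Without LPS the interval of the WC1 cells (34.0 to 54.7 CPM) overlapped that of the CD4 cells. The intervals of CD4 and CD8 cells did not overlap in any library, and lay closest at 4 h (99.8 to 116 against 117 to 140.3 CPM). At 8 h 1 CD8 cell held 59 of the 228 UMIs (25.9%), and without the highest cell of each kind the intervals overlapped (64.8 to 84.3 CPM in CD4 and 80.3 to 109 CPM in CD8 cells). The share with IDO1 at 8 h was 10.4% of CD4 and 10.6% of CD8 cells. CD4 cells at 4 h lay above their interval without LPS (50.7 to 63.5 CPM).

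FLT3-positive cells came next to NCR1-positive CD3E-zero cells in every library, but were few and uneven. IDO1 had 500.4 CPM in 36 cells without LPS (interval 439 to 568), 179 CPM in 36 cells at 2 h (140.4 to 226), 207 CPM in 22 cells at 4 h (158 to 265) and 1016 CPM in 17 cells at 8 h (879 to 1169). The ratios were 0.359 (0.272 to 0.469), 0.413 (0.307 to 0.548) and 2.03 (1.67 to 2.46), so all 3 times were past 2-fold, as were 17%, 21.5% and 18.7% of the genes tested in this class. A single cell held 25.2%, 41.7%, 48.4% and 38.6% of the IDO1 UMIs of the class. Without that cell in each library the ratios were 0.278, 0.292 and 1.78, so that the 8 h ratio was no longer past 2-fold. With cells of 1 class only the ratios were 0.520 at 2 h and 0.556 at 4 h, and with no upper limit on genes 0.647 at 4 h and 1.62 at 8 h, so each of the 3 calls was lost under some alternative.

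IDO1 was found in 12, 7, 7 and 9 of these cells (33.3%, 19.4%, 31.8% and 52.9%), and in 13.9%, 8.33%, 4.55% and 29.4% after thinning. NCR1 was at 0 in the IDO1-positive FLT3-positive cells of all 4 libraries, and their NK list summed to 5.40, 23.3, 36.3 and 23.4 CPM. Their dendritic list summed to 1578, 919, 954 and 1489 CPM against 754, 869, 1074 and 580.0 CPM in the FLT3-positive cells without IDO1, higher in 3 of 4 libraries. Their monocyte list was lower than in cells without IDO1 in all 4, at 1799.7 against 5099.6 CPM, 1605 against 4159 CPM, 3379 against 7966 CPM and 1084 against 1923 CPM. CD14 was at 0 in the IDO1-positive cells without LPS and at 2 h. BATF3, a transcription factor of conventional dendritic cells, had a UMI in 77.8%, 88.9%, 90.9% and 70.6% of FLT3-positive cells, while XCR1, the chemokine receptor of cross-presenting dendritic cells, was at 0 in all 4 libraries. CD14 had a UMI in 36.1%, 36.1%, 40.9% and 23.5% of FLT3-positive cells, so the class was mixed.

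In CD14-positive cells IDO1 was low without LPS and at 2 h and higher later, but most UMIs at 4 h lay in a handful of cells. The level was 29.6, 29.2, 80.5 and 92.4 CPM, and the ratios were 0.986 (0.815 to 1.19), 2.72 (2.26 to 3.26) and 3.12 (2.58 to 3.77), with 16.5%, 15.6% and 26.5% of genes past 2-fold in this class. The median ratio over all genes was 0.782, 1.02 and 1.34. At 4 h, 1 cell held 65 of the 203 UMIs (32.0%), 3 cells with 3 NK markers other than NCR1 held 111 UMIs and 4 cells with more such markers held 71. Without cells that held 2 or more such markers, the level was 16.1, 9.83, 3.40 and 64.8 CPM, so that the 4 h ratio turned to 0.211 and the 8 h ratio was 4.02. The 4 h ratio was also under 2 with at least 2 CD14 UMIs (1.84) and as a mean over cells (1.88), and the 8 h ratio with no upper limit on genes (1.81).

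At 8 h the CD14-positive cells kept under the limit of 3000 genes were shallow and held IDO1 thinly. Cells above that limit were left out, so these depths do not describe all CD14-positive cells. Their median depth was 2229.5 UMIs, against 6597, 9077.5 and 6695 in the other libraries, and the median cell with IDO1 held 1 UMI. The share with IDO1 was 4.62%, 4.30%, 5.44% and 16.4% (13.0 to 20.2 at 8 h), and 2.24%, 2.18%, 2.90% and 6.6% after thinning (4.31 to 9.58 at 8 h). At 8 h the cells with IDO1 had lower monocyte (1455 against 2543 CPM) and dendritic lists (395 against 697 CPM) than those without. Their NK (550 against 133 CPM), T cell (1315 against 1053 CPM) and B cell lists (880 against 642 CPM) were higher. The part of mixed cells in the 8 h level was not tested. In MS4A1-positive cells the share at 8 h was 11.2% (9.29 to 13.4) at a median depth of 4820 UMIs and 4.20% after thinning (2.99 to 5.72), and the thinned intervals of both classes overlapped. The summed level at 8 h lay higher in CD14-positive cells (79.3 to 107 CPM) than in MS4A1-positive cells (42.1 to 54.0 CPM). CD3E-positive cells with WC1 genes alone, whose level was the lowest among the CD3E-positive kinds, had IDO1 in 2.61% of 153 cells (0.717 to 6.56) at a median depth of 5207 UMIs and 1.32% after thinning (0.160 to 4.67). No class was shown to lack IDO1, so how much of these shares was background was not tested.

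MS4A1-positive cells had the lowest level in each library, at 26.2, 22.9, 52.0 and 47.8 CPM, with ratios of 0.873 (0.745 to 1.02), 1.99 (1.73 to 2.29) and 1.82 (1.53 to 2.17), where 8.47%, 12.1% and 6.68% of genes were past 2-fold. The share of cells with IDO1 was 3.41%, 2.66%, 5.23% and 11.2%, and 1.22%, 1.38%, 2.99% and 4.20% after thinning. Cells with no NK marker other than NCR1 went from 6.83 CPM without LPS and 7.45 CPM at 2 h to 37.8 CPM at 4 h and 41.2 CPM at 8 h. Without cells that held 2 or more NK markers the ratios were 0.948, 3.49 and 3.72, so both later times were past 2-fold, and the 4 h ratio was also past 2-fold with at least 2 MS4A1 UMIs (2.52) and as a mean over cells (2.54), while it was 1.49 with no upper limit on genes. The 2 later libraries differed in how the UMIs were spread. At 4 h the 115 positive cells had a median of 3 IDO1 UMIs and 29 held 10 or more, while at 8 h the 109 positive cells had a median of 1 and 6 held 10 or more. The positive cells at 8 h were shallower than those without IDO1, with medians of 2784 and 5032.5 UMIs, and had higher monocyte (1155 against 370 CPM), T cell (808 against 331 CPM) and NK lists (225 against 71.1 CPM). The part of such cells in the 8 h share was not tested. Free RNA in the droplets was not tested as a source.

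The order of the levels was alike in all 4 libraries, with NCR1-positive CD3E-zero cells first, FLT3-positive cells second and MS4A1-positive cells last. The first place held under every alternative tried. With at least 2 UMIs of the marker FLT3-positive cells (35.9 CPM) lay under CD3E-positive cells (67.5 CPM) at 2 h, and CD14-positive cells were last without LPS, at 2 h and at 4 h (11.5, 11.7 and 21.3 CPM). With no upper limit on genes FLT3-positive and CD3E-positive cells were level at 2 h (67.8 and 67.9 CPM). CD14-positive and MS4A1-positive cells did not differ beyond their intervals without LPS (26.3 to 33.2 against 23.2 to 29.5 CPM) or at 2 h (25.1 to 33.8 against 20.6 to 25.4 CPM). At 8 h the CD14-positive and CD3E-positive cells did not differ (79.3 to 107 against 86.6 to 98.7 CPM).

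Much of the IDO1 lay in cells with none of the 5 markers. They were 13.7%, 14.4%, 13.2% and 16.1% of the cells and held 42.2%, 40.3%, 29.9% and 26.6% of the IDO1 UMIs, while the NCR1-positive CD3E-zero cells were 0.831%, 1.07%, 1.33% and 1.17% of the cells and held 14.2%, 23.0%, 24.9% and 23.9%. The cells with none of the 5 markers had 714, 546, 487 and 569.6 CPM. Where such a cell held 4 or more of the 11 NK markers other than NCR1, the level was 2783, 2290.5, 2663 and 2526 CPM, beside 2328, 2503, 2718 and 2324 CPM in NCR1-positive CD3E-zero cells. Several of these markers are also genes of cytotoxic T cells. Over all kept cells, those with no such marker had 34.6, 25.3, 46.1 and 77.5 CPM, those with 1 had 105, 77.6, 90.6 and 102 CPM, those with 2 had 566, 572, 590.3 and 303 CPM, those with 3 had 1528, 1573, 1541 and 1270 CPM, and those with 4 or more had 1264.5, 1433, 1483 and 1703 CPM. The cells holding 10 or more IDO1 UMIs, 222, 248, 245 and 89 in number, held 75.6%, 73.0%, 78.1% and 74.7% of all IDO1 UMIs. This split by marker number was chosen after the values were seen.

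**Figure D4:**
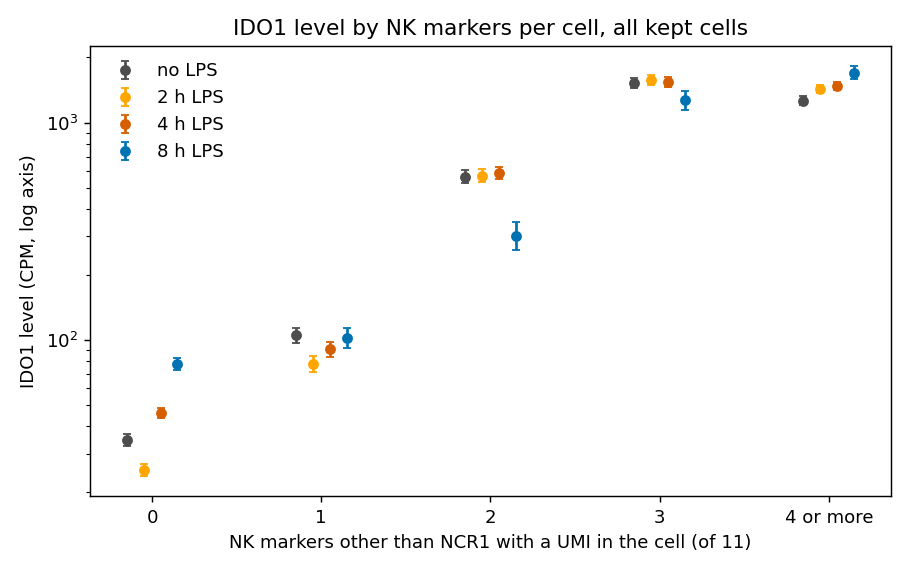
IDO1 level (CPM, log axis) in all kept cells by the number of NK markers other than NCR1 with a UMI in the cell, by library, with exact Poisson 95% intervals. The level goes from 25.3 to 77.5 CPM with none of these markers to between 1270 and 1573 CPM with 3.

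The enzymes after IDO1 in the kynurenine pathway had few UMIs in NCR1-positive CD3E-zero cells, and several were as low in other classes. Over the 4 libraries IDO1 had 4350 UMIs in NCR1-positive CD3E-zero cells. Of the enzymes that share its reaction, IDO2 had 6 UMIs (3.47 CPM, 1.27 to 7.54) and TDO2 had 0 (exact interval up to 2.13 CPM). Of the enzymes that act next, AFMID, the formamidase that releases kynurenine, had 0 UMIs, and KMO, which hydroxylates kynurenine, had 2. KYNU, which cleaves kynurenine, had 11, and HAAO and QPRT, later enzymes on the way to NAD, had 0 each. CD3E-positive cells had 0.315 CPM of AFMID, 0.393 CPM of HAAO and 0.118 CPM of QPRT, all under the 2.13 CPM that 0 UMIs allowed in NCR1-positive CD3E-zero cells. KMO had 31.4 CPM in FLT3-positive (22.7 to 42.3) and 24.3 CPM in CD14-positive cells (22.2 to 26.5) over the 4 libraries, but was lower in FLT3-positive than in CD14-positive cells in 3 of them, at 4.20 against 5.91 CPM without LPS, 40.0 against 59.1 CPM at 4 h and 0 against 28.4 CPM at 8 h. KYNU had 11.7 CPM in MS4A1-positive cells (10.7 to 12.7), beside 6.35 CPM in NCR1-positive CD3E-zero cells (3.17 to 11.4), 2.77 CPM in CD14-positive and 2.36 CPM in CD3E-positive cells. HAAO had 5.92 CPM in MS4A1-positive cells (5.24 to 6.67) and 3.65 CPM in FLT3-positive cells (1.18 to 8.51). Of the transaminases, KYAT3 had 22 UMIs (12.7 CPM) and GOT2, a mitochondrial enzyme with wider duties, 44 (25.4 CPM). TDO2 and ACMSD had 0 UMIs in all 5 classes. With LPS, 1 of these 12 genes had 20 UMIs in NCR1-positive CD3E-zero cells at 2 h and at 4 h (GOT2, ratios 0.994 and 0.760) and 0 did at 8 h.

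**Figure D5:**
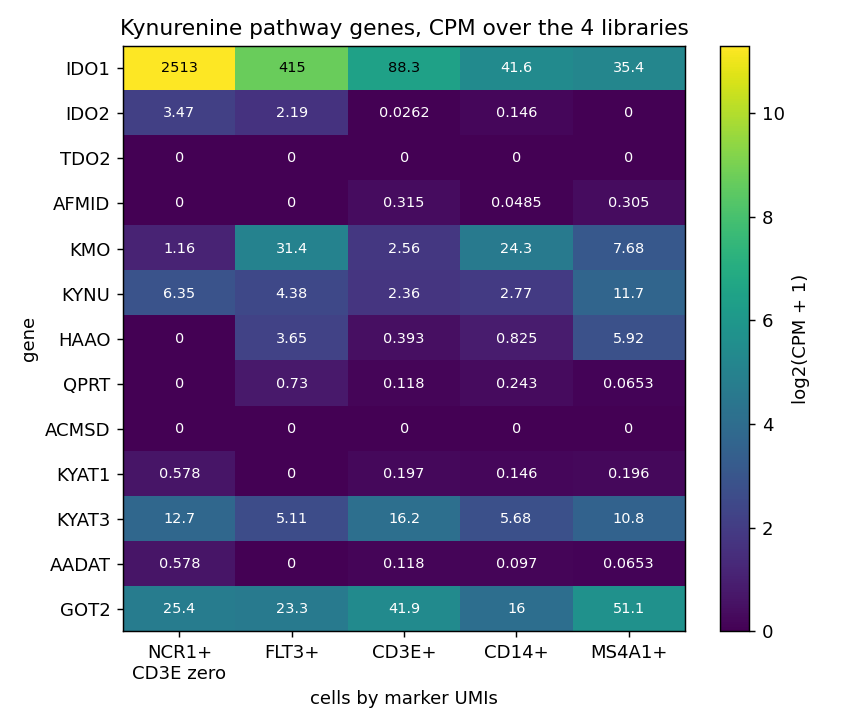
Levels of the 13 kynurenine pathway genes by class, as CPM over the 4 libraries (printed in each cell) with colour on the log2(CPM + 1) scale. IDO1 is highest in NCR1-positive CD3E-zero cells (2513 CPM), where AFMID, HAAO and QPRT are at 0, and KMO has 31.4 CPM in FLT3-positive and 24.3 CPM in CD14-positive cells.

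Of the genes of tryptophan transport and sensing, few had enough UMIs to compare in NCR1-positive CD3E-zero cells. WARS1, the tryptophanyl-tRNA synthetase, had 326, 354, 392 and 403 CPM, and ATF4, the transcription factor of the amino acid shortage response, 383, 459, 449.5 and 483 CPM. Both were higher than without LPS at each time, by ratios of 1.09 to 1.24 and 1.17 to 1.26 whose intervals all included 1. Of the 6 of 13 genes with at least 20 UMIs, 1 was past 2-fold lower at 2 h (SLC1A5, a glutamine carrier, 0.398, 0.141 to 1.06), beside 3.68% of all genes, 0 at 4 h and 1 higher at 8 h (SLC3A2, the heavy chain of the tryptophan carrier, 2.54, 1.04 to 6.79), beside 4.27% of all genes. AHR, the receptor that kynurenine can engage, was not among the genes with 20 UMIs. The median log2 ratio of the 6 genes was 0.19, 0.24 and 0.50 against 0.02, 0.02 and 0.01 over all genes.

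The 10 genes whose pattern over the 20 sums of class and library was most like that of IDO1 had Pearson correlations of 0.88 to 0.92 on the log2(CPM + 1) scale among 9994 genes. The points share libraries, depth and in part cells, so this is a description. NOL4L came first (0.92), then IL18RAP (0.91), a chain of the interleukin 18 receptor of NK and T cells, and IKZF2 (0.91), the transcription factor Helios. The others were APMAP, IKBIP, H1-2, TECPR2, ST3GAL4 and the unnamed ENSBTAG00000049995 and ENSBTAG00000048782. IL18RAP had 39.9 to 79.1 CPM in NCR1-positive CD3E-zero cells and 7.0 to 12.9 CPM in CD3E-positive cells, and IKZF2 had 119.8 to 152 CPM and 17.7 to 22.9 CPM, with 64.8 to 206 CPM in FLT3-positive cells. With Spearman's correlation, or without the library without LPS, at 2 h or at 4 h, 7 of the 10 remained among the first 10, and 6 did without the 8 h library.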

How the data were processed

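The values used were UMI counts as deposited, not normalized, which the authors obtained from 10x 3' libraries by running Cell Ranger against ARS-UCD1.2 (bosTau9). Accessibility counts were deposited too, and IDO1 was not analysed in them. No genome of this build was given, so no coordinates or sequences are printed. A barcode was kept with 200 to 3000 genes detected, 200 or more UMIs, and a mitochondrial share (13 genes) under 20%, and no doublet caller was run. UMIs were summed over the cells of a class and scaled to 1000000, with exact Poisson intervals for levels, exact binomial (Clopper-Pearson) intervals for shares and exact conditional intervals for ratios (Python 3.11.15, numpy 2.4.6, scipy 1.17.1). With 1 library per treatment no test was possible, and past 2-fold, over genes with at least 20 UMIs in the pair of libraries, stands for a call. A class at 0 was set to a floor of 3 counts. The fold and likeness steps were tested on simulated data. Named genes were IDO1, the 10 most like it among genes with at least 200 UMIs, and genes of 5 lists. The lists were the kynurenine pathway, tryptophan, interferon gamma, type I interferon targets and proteins that bind IDO1. The genes, lists and classes were chosen with earlier results of these data known. For shares after thinning, cells under 1000 UMIs were left out. Alternatives were the limits on cells, the marker cut, cells of 1 class only, thinning to 1000 UMIs, a mean over cells, a pseudocount of 1 CPM, scaling by edgeR 4.0.16 (TMM) or DESeq2 1.42.0 (R 4.3.3) and the minimum UMIs. Those without shallow cells, without the cell with most IDO1, without cells with NK markers and without GNLY in the NK list were chosen after seeing the data. Some listed genes are not reported here by name but remain in the list totals.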

Additional observations from a re-analysis of the deposited data

Results flagged for a closer look

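At 4 h the IDO1 ratio to the library without LPS lay above 1 in 3 classes and below 1 in another, with counting intervals that did not include 1. It was 1.17 in NCR1-positive CD3E-zero cells, 2.72 in CD14-positive cells and 1.99 in MS4A1-positive cells, and 0.413 in FLT3-positive cells. The difference between the classes was not tested, since each treatment had 1 library. The values in CD14-positive and FLT3-positive cells rested on few cells, as 1 cell held 32.0% and 48.4% of their IDO1 UMIs at 4 h. Without cells that held 2 or more NK markers other than NCR1, the 4 h ratio in CD14-positive cells was 0.211, which lies below 1.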

How the results depend on the processing

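Each treatment had 1 library, so no replicate could be left out and no value rests on replicate error. No paired analysis was possible because each treatment had 1 library. Limiting mitochondrial UMIs to under 10%, a pseudocount of 1 CPM and leaving out cells under 1/3 of their library's median depth moved no value past its counting interval. In NCR1-positive CD3E-zero cells no alternative put the ratio to no LPS past 2-fold, and under every alternative their level stayed above that of each other class. Of their folds over other classes, the one over FLT3-positive cells at 8 h (2.29) fell under 2-fold, to 1.57 with cells of 1 class only and to 1.90 with at least 2 UMIs of the marker. Values that left their counting interval follow in the order no LPS, 2 h, 4 h and 8 h, with all times given where none is named, and the cause of these shifts was not tested.

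With no upper limit on genes, the IDO1 level in CPM was 1444, 2109 and 2438 in NCR1-positive CD3E-zero cells without LPS and at 2 h and 4 h, 39.3, 44.0, 93.1 and 71.1 in CD14-positive cells, 202, 67.8, 131 and 326 in FLT3-positive cells, 82.1, 67.9 and 81.3 in CD3E-positive cells without LPS and at 2 h and 8 h, and 34.1, 30.025 and 59.5 in MS4A1-positive cells without LPS and at 2 h and 8 h. The fold of NCR1-positive CD3E-zero cells was 36.7, 47.9, 26.2 and 30.6 over CD14-positive cells, 7.16, 31.1, 18.7 and 6.67 over FLT3-positive cells, 17.6, 31.1 and 25.5 over CD3E-positive cells without LPS and at 2 h and 4 h, and 42.3, 70.2, 47.8 and 36.6 over MS4A1-positive cells. The share of cells with IDO1 was 8.71%, 8.82% and 15.6% in CD14-positive cells without LPS and at 2 h and 4 h, 7.89%, 8.74% and 11.5% in CD3E-positive cells without LPS and at 4 h and 8 h, and 5.03%, 3.60% and 6.39% in MS4A1-positive cells without LPS and at 2 h and 4 h. The ratio to no LPS was 1.46, 1.69 and 1.51 in NCR1-positive CD3E-zero cells, 1.81 in CD14-positive cells at 8 h, 0.647 and 1.62 in FLT3-positive cells at 4 h and 8 h, 0.826 and 1.16 in CD3E-positive cells at 2 h and 4 h, and 1.49 in MS4A1-positive cells at 4 h.

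With at least 2 UMIs of the marker, the IDO1 level in CPM was 1814, 2863, 3128 and 1682 in NCR1-positive CD3E-zero cells, 11.5, 11.7, 21.3 and 60.6 in CD14-positive cells, 301, 35.9 and 154 in FLT3-positive cells without LPS and at 2 h and 4 h, 67.5 in CD3E-positive cells at 2 h, and 20.4, 14.5 and 31.3 in MS4A1-positive cells without LPS and at 2 h and 8 h. The fold of NCR1-positive CD3E-zero cells was 157, 244 and 147 over CD14-positive cells without LPS and at 2 h and 4 h, 6.03, 79.7, 20.2 and 1.90 over FLT3-positive cells, 19.2, 42.4, 32.4 and 18.8 over CD3E-positive cells, and 198 and 60.8 over MS4A1-positive cells at 2 h and 4 h. The share of cells with IDO1 was 62.5% and 96.3% in NCR1-positive CD3E-zero cells without LPS and at 2 h, 85.7% in FLT3-positive cells at 8 h, and 7.94% in MS4A1-positive cells at 8 h. The ratio to no LPS was 1.58 and 1.72 in NCR1-positive CD3E-zero cells at 2 h and 4 h, 1.84 and 5.26 in CD14-positive cells at 4 h and 8 h, 0.119 and 2.95 in FLT3-positive cells at 2 h and 8 h, and 0.711 and 2.52 in MS4A1-positive cells at 2 h and 4 h.

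With cells of 1 class only, the IDO1 level in CPM was 2727 in NCR1-positive CD3E-zero cells at 2 h, 20.8, 126 and 74.1 in CD14-positive cells without LPS and at 4 h and 8 h, 853, 443, 474 and 1517 in FLT3-positive cells, 108 and 76.9 in CD3E-positive cells without LPS and at 2 h, and 20.1, 14.1, 38.4 and 38.8 in MS4A1-positive cells. The fold of NCR1-positive CD3E-zero cells was 115, 22.4 and 32.2 over CD14-positive cells without LPS and at 4 h and 8 h, 2.80, 6.15, 5.94 and 1.57 over FLT3-positive cells, 22.2 over CD3E-positive cells without LPS, and 119, 193, 73.4 and 61.5 over MS4A1-positive cells. The share of cells with IDO1 was 10.7% in CD14-positive cells at 8 h, 60%, 43.8% and 62.5% in FLT3-positive cells without LPS and at 2 h and 4 h, 7.97% in CD3E-positive cells at 8 h, and 2.05% and 8.16% in MS4A1-positive cells at 2 h and 8 h. The ratio to no LPS was 1.40 and 6.03 in CD14-positive cells at 2 h and 4 h, 0.520 and 0.556 in FLT3-positive cells at 2 h and 4 h, 0.925 and 0.885 in CD3E-positive cells at 4 h and 8 h, and 0.706 in MS4A1-positive cells at 2 h.

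As a mean over cells, the IDO1 level in CPM was 2711 in NCR1-positive CD3E-zero cells at 2 h, 41.5, 40.1 and 118 in CD14-positive cells without LPS and at 2 h and 8 h, 739 in FLT3-positive cells at 8 h, 86.4, 68.3, 91.1 and 100.5 in CD3E-positive cells, and 65.2 and 84.3 in MS4A1-positive cells at 4 h and 8 h. The fold of NCR1-positive CD3E-zero cells was 59.0, 67.6 and 21.1 over CD14-positive cells without LPS and at 2 h and 8 h, 3.39 over FLT3-positive cells at 8 h, 28.4, 39.7 and 31.1 over CD3E-positive cells without LPS and at 2 h and 4 h, and 43.5 and 29.7 over MS4A1-positive cells at 4 h and 8 h. The ratio to no LPS was 1.88 in CD14-positive cells at 4 h, 1.56 in FLT3-positive cells at 8 h, 1.16 in CD3E-positive cells at 8 h, and 2.54 and 3.29 in MS4A1-positive cells at 4 h and 8 h.

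Thinned to 1000 UMIs, the share was 82.1% and 78.6% in NCR1-positive CD3E-zero cells at 2 h and 4 h, 2.24%, 2.18%, 2.90% and 6.60% in CD14-positive cells, 13.9% and 4.55% in FLT3-positive cells without LPS and at 4 h, 4.19%, 3.13%, 4.11% and 4.95% in CD3E-positive cells, and 1.22%, 1.38%, 2.99% and 4.20% in MS4A1-positive cells. The ratio to no LPS was 1.22 and 2.37 in CD14-positive cells at 2 h and 8 h with TMM scaling, and 1.24 and 2.30 in CD14-positive cells at 2 h and 8 h with DESeq2 size factors. Without the cell with most IDO1 UMIs it was 2.03 in CD14-positive cells at 4 h, 0.292 in FLT3-positive cells at 4 h, and 0.891 in CD3E-positive cells at 8 h. Without cells with 2 or more other NK markers it was 0.609, 0.211 and 4.02 in CD14-positive cells, 0.892, 1.37 and 1.92 in CD3E-positive cells, and 3.49 and 3.72 in MS4A1-positive cells at 4 h and 8 h, the CD14-positive value at 4 h reversed. The genes past 2-fold in NCR1-positive CD3E-zero cells, 387, 411 and 278 of those with at least 20 UMIs, were 103, 116 and 69 with at least 50 UMIs and 1488, 1515 and 1445 with any UMI.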

Other observations

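Cells that held none of the 5 class markers and at most 1 NK marker other than NCR1, yet 5 or more IDO1 UMIs, were 37, 28, 22 and 11 in number without LPS and at 2 h, 4 h and 8 h. They were chosen by IDO1 after the values were seen, and most genes named here were picked from their leading genes, so the values are a description. FABP5, a fatty acid binding protein, had 7066, 4422, 9966 and 14249 CPM in them against 398, 390.1, 598 and 301 CPM in the like cells with no IDO1 UMI, although it was found in 11, 6, 4 and 4 of the cells. FSCN1, the actin-bundling protein fascin, had 918, 527, 396 and 830.5 CPM against 69.0 to 76.9 CPM, in 8, 6, 3 and 3 cells. IKZF2 was spread more widely, in 17, 13, 10 and 5 cells, at 232, 253, 261 and 153 CPM against 36.1, 21.3, 26.7 and 23.8 CPM. BATF3 had 550, 563, 809 and 1421 CPM against 274, 417, 512 and 538 CPM. It was found in 32.4%, 25.0%, 45.5% and 63.6% of the cells against 15.4%, 25.5%, 29.0% and 24.8%. These shares were not adjusted for depth. The cells with 5 or more IDO1 UMIs were deeper, at medians of 3714 against 1779.5, 3671 against 2258, 4056.5 against 2964 and 1364 against 1208 UMIs. IRF8, also on the dendritic list, had 0, 1, 2 and 3 UMIs in them. Its level was lower but for 8 h, at 0, 7.21, 16.8 and 65.6 CPM against 24.9, 26.6, 37.5 and 35.7 CPM. CCL5, a chemokine, had 1468, 2193, 2055.5 and 721 CPM against 211, 152, 343 and 236 CPM.

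In the scATAC-seq tables, the counts on IDO2, the related dioxygenase, were 11, 367, 272 and 65 without LPS and at 2 h, 4 h and 8 h, or 11.3, 12.1, 10.1 and 5.44 per 1000000 counts, found in 9, 158, 128 and 38 of 3121, 4172, 3231 and 3163 barcodes. AFMID, at 0 UMIs in NCR1-positive CD3E-zero cells, had 132, 156, 159 and 158 per 1000000. These counts were summed over all barcodes of each library and not split by class. Whether AFMID was accessible in NCR1-positive CD3E-zero cells was not tested.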
